A study of Mus musculus with 4 samples.

Results

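The comparison described here sets ventricular nuclei of sedentary mice with a myocardial infarct against those of sedentary mice without one. Its members were the barcodes of these 2 libraries with at least 300 detected genes and at most 20% of their unique molecular identifiers (UMIs, which count captured RNA molecules) from mitochondrial genes: 5342 in the sedentary and 3206 in the sedentary infarct library, 8548 together, of 19806 barcodes deposited for the series and 19584 that pass the same limits. All mice were wild type C57BL/6J animals of both sexes, 8 weeks old at the start and then kept for 16 weeks, here without a running wheel. The sedentary library pooled 2 hearts taken at that point. The infarct library pooled 4 hearts taken 2 weeks after surgery to induce the infarct. Frozen ventricles were lysed, and nuclei were sorted on a DNA dye and profiled with droplet 3′ single-nucleus RNA sequencing. There were no sham-operated mice in the 2 groups, the infarct mice were 2 weeks older, and each group was 1 library, so surgery, age, the individual hearts and the infarct cannot be told apart. Values of the same contrast in running mice (a running and a running infarct library, with the same pooling) are set beside the main ones as a second pair of libraries.

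After an infarct the dying muscle is replaced by a scar, and the other cells of the ventricle take part. The endocardium lines the chambers and signals to the muscle through neuregulin and bone morphogenetic proteins. Lymphatic vessels drain fluid and immune cells, pericytes and smooth muscle cells wrap capillaries and arteries, and the mesothelium of the epicardium covers the outer surface and can lay down matrix. Lymphocytes, macrophages and dendritic cells enter or expand, and fibroblasts turn into matrix-producing myofibroblasts.

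The files held raw UMI counts per gene and nucleus. They summed to 32899707 UMIs in the sedentary and 26170995 in the infarct library. After 228 and 82 likely doublets (droplets with 2 nuclei) were left out, 5114 and 3124 nuclei remained, with medians of 3484 and 4146 UMIs. Clusters of all 4 libraries together were named from marker genes. A name ends in "-like" because it rests on those markers alone, and 19.7% and 17.6% of nuclei stayed unnamed. A level is the count of a gene summed over the nuclei of a class, scaled to 1000000 such UMIs from genes outside the mitochondrial genome (CPM). With 1 library a side there is no replicate error and no test. Every interval below is a 95% interval of counting error alone, exact for shares and gene ratios and a log-scale approximation for ratios of shares. It holds no PCR or pooling error, and the individual hearts of a pool were not told apart. A gene was called beyond 1.5-fold only where its whole interval lay past 1.5-fold, and a gene counted as measured in a class from 20 UMIs over both libraries. Where a class had 0 UMIs of a gene, the fold is given as "at least" the value against the 3 UMIs that a count of 0 allows. That value leaves out the counting error of the other library and can lie above the limit of the exact interval. Genes described are those with the interval limit farthest from no change under a size rule, or members of gene lists given as examples of their list. Counts over classes include the Schwann-, dendritic- and lymphocyte-like ones, whose few nuclei (14 and 3, 5 and 22, 9 and 69) make their levels uncertain. In each of 9 classes the median log2 ratio over all measured genes was between -0.04 and 0.04.

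Properties of the whole libraries moved with the contrast. The libraries shared 4 barcodes. Nuclei were called Y-positive from 2 UMIs summed over 4 Y-chromosome genes. This call also depends on the depth of a nucleus and on free RNA, so it does not give the sex of each nucleus. Y-positive nuclei made up 32.9% of the sedentary and 19.4% of the infarct library, with these genes at 322 and 150.5 CPM, so the sex mix of the nuclei differed. From abundant cardiomyocyte transcripts outside cardiomyocyte-like nuclei, free RNA came to an estimated 18.3% and 20.3% of UMIs. Median mitochondrial shares were 6.21% and 4.59%. The sedentary library also stood apart from the other 3 in stress-inducible chaperone genes, as described at the end. Their part in the results was not tested beyond the values given beside them.

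Immune and mesothelial-like nuclei held a larger share of the infarct library, and lymphatic endothelial-like nuclei a smaller one. Lymphocyte-like nuclei numbered 9 and 69, which was 0.176% (0.0805 to 0.334) of sedentary and 2.21% (1.72 to 2.79) of infarct nuclei. Their ratio of shares was 12.6 (6.27 to 25.1) in the sedentary pair and 6.9 (4.77 to 9.98) in the running pair. Mesothelial-like nuclei numbered 107 and 133, or 2.09% (1.72 to 2.52) of sedentary and 4.26% (3.58 to 5.03) of infarct nuclei, a ratio of 2.03 (1.58 to 2.61) beside 2.41 (1.91 to 3.03) in running mice. This ratio depended on which nuclei were counted. With Y-positive nuclei alone it was 0.895, and 3.24 among Y-negative nuclei (no such UMI), and 0.818 with at most 5% mitochondrial UMIs. Lymphatic endothelial-like nuclei (187 and 75) were 3.66% (3.16 to 4.21) of sedentary and 2.4% (1.89 to 3.0) of infarct nuclei, a ratio of 0.657 (0.504 to 0.855), beside 0.599 (0.485 to 0.741) in running mice. Split by Y-chromosome UMIs, the ratio was 0.335 for Y-positive nuclei and 0.896 for Y-negative ones.

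For the other 3 small classes described below, the interval of the ratio included 1. Endocardial-like nuclei (404 and 225) gave 0.912 (0.779 to 1.07), pericyte-like nuclei (163 and 118) 1.19 (0.939 to 1.5) and smooth muscle-like nuclei (40 and 28) 1.15 (0.708 to 1.85). Within the endocardial-like class its 2 clusters differed. The larger, led by Nrg1, Smoc1 and Npr3, had 314 and 213 nuclei, a ratio of 1.11 (0.939 to 1.31). The smaller, led by the potassium channel gene Kcnc2 and by Hecw1, Dkk2, Calcr and Wnt9b, had 90 and 12 nuclei, a ratio of 0.218 (0.12 to 0.398). Dendritic-like nuclei numbered 5 and 22, a ratio of 7.2 (2.73 to 19), and Schwann-like nuclei, the glia of cardiac nerves, numbered 14 and 3, a ratio of 0.351 (0.101 to 1.22). Among the large classes the ratios were 2.53 (2.07 to 3.11) for macrophage-like, 0.775 (0.693 to 0.867) for vascular endothelial-like, 1.05 (0.979 to 1.13) for fibroblast-like and 0.778 (0.694 to 0.873) for cardiomyocyte-like nuclei. The arterial cluster of the vascular class, led by Gja5, Sema3g and Sox17, had 197 and 31 nuclei, a ratio of 0.258 (0.177 to 0.375). Shares are of nuclei recovered and sum to a whole, so they do not give cell numbers in the heart.

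**Figure D1:**
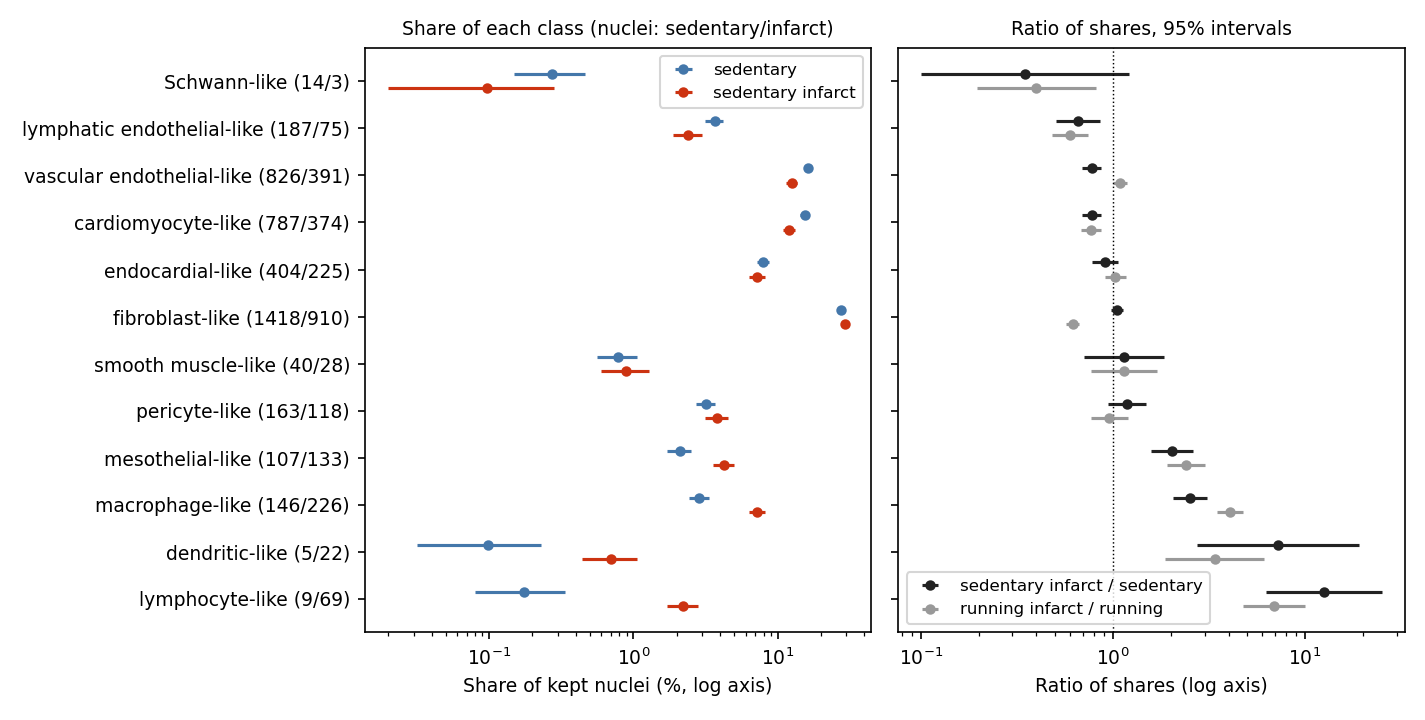
Left, share of kept nuclei in each named class (percent, log axis) in the sedentary (blue) and sedentary infarct (red) library, with exact 95% counting intervals and numbers of nuclei in brackets. Right, ratio of the infarct to the no-infarct share (log axis) in sedentary (black) and running (grey) mice. Lymphocyte-like nuclei had the ratio farthest above 1, 12.6, and lymphatic endothelial-like nuclei were below 1 in both pairs.

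Endocardial-like nuclei carried more transcripts of the ligand genes Nrg1 and Bmp6 after infarction and fewer of several genes that lead their smaller cluster. Of 10541 genes measured in the class, 211 (2.00%) were beyond 1.5-fold higher and 190 (1.80%) beyond 1.5-fold lower. In the running pair, 347 of 388 of the called genes measured there moved the same way. Fewer, 196 of all 401 called genes, were beyond 1.5-fold in the same direction there. The share of all measured genes with the same sign in both pairs was not computed, here or in the classes below. All 12 endocardial markers were detected in both libraries and summed to 12797 and 22505 CPM. The 12 include Nrg1 and Smoc1, whose higher levels are given below, so the sum does not show a rise of every marker. Of the other marker lists, the vascular endothelial one summed highest, to 9448 and 9770.1 CPM, followed by mesothelial markers at 4669.5 and 3928 CPM and cardiomyocyte markers at 3643 and 3210.2 CPM. Fibroblast markers summed to 2472 and 3054 CPM.

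The neuregulin gene Nrg1 (ENSMUSG00000062991), a ligand of ErbB receptors on cardiomyocytes, was the most abundant of the list members that were beyond 1.5-fold higher. Its level was 1233 CPM in the sedentary and 7442 CPM in the infarct library, 6.04-fold higher (5.73 to 6.37), and 1834 and 12418 CPM in the running and running infarct libraries. Nrg1 and the matricellular gene Smoc1 are among the 12 markers that named the class. In clusters made and named without any gene named here, Nrg1 had a log2 ratio of 2.58, beside 2.59 in the main clusters. Over all kept nuclei, whatever their cluster, Nrg1 stood at 127 and 729 CPM. With every nucleus thinned to 1000 UMIs, 27.5% and 51.1% of endocardial-like nuclei held an Nrg1 UMI (39.9% and 63.6% unthinned), against 1.06% and 7.39% of fibroblast-like nuclei. Nrg1 was beyond 1.5-fold higher in 9 of the 10 classes that measured it, Schwann-like nuclei (14 and 3) among them. In only 3 of these 9 did its infarct level reach that over all kept nuclei. The part of free RNA in the calls outside the endocardial-like class was not tested. In the other class, the lymphocyte-like one, it was called beyond 1.5-fold lower, with too few sedentary nuclei (9) for a comparison of levels. Nrg1 stood, for example, in fibroblast-like nuclei at 12.6 and 117 CPM, and in vascular endothelial-like nuclei at 50.3 and 145 CPM. Both lay below the endocardial level in each library.

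The list of TGF-beta signalling genes had 3 of 22 measured members beyond 1.5-fold higher, Tgfb2 among them, none lower and a median of 0.17. Bmp6, a bone morphogenetic protein, stood at 1185 CPM in the sedentary and 2659 CPM in the infarct library, 2.24-fold higher (2.11 to 2.39). Bmp4 was 2.47-fold higher (1.67 to 3.71) at 30.1 and 74.4 CPM, although its log2 ratio was -0.30 in nuclei with Y-chromosome UMIs and 1.36 in those without. Gdf6, of the same growth factor family, was 38.9-fold higher (10.3 to 329.7) with 2 and 54 UMIs, the latter in 21 of 225 nuclei. Nrp1, a co-receptor for vascular endothelial growth factor and semaphorins, was 2.41-fold higher (2.21 to 2.62) at 623 and 1499 CPM. Pdgfc, a platelet-derived growth factor gene, was 2.02-fold higher (1.68 to 2.44) at 139 and 281 CPM, and Tgfb2 3.09-fold higher (2.23 to 4.34) at 39.4 and 122 CPM, but Tgfb2 stood at 68.7 and 50.9 CPM in the running pair, not higher there. The endocardial identity list had 5 of 20 members beyond 1.5-fold higher (Nrg1, Smoc1, Gata6, Bmp6, Bmp4) and 1 lower (Wnt9b), with a median log2 ratio of 0.31. Smoc1 was 2.57-fold higher (2.29 to 2.87) at 348 and 894 CPM, and Gata6, a transcription factor gene of heart development, 2.1-fold higher (1.82 to 2.44) at 222 and 467 CPM. Npr3, the natriuretic peptide clearance receptor that marks this endothelium, was 1.24-fold higher (1.15 to 1.33) at 1165 and 1439 CPM and did not pass 1.5-fold.

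Adhesion and channel genes were among those chosen by size of change. Ptprd, a receptor tyrosine phosphatase, was 12.7-fold higher (10.6 to 15.3), at 97.5 and 1236 CPM here and 86.8 and 1512 CPM in the running pair. Thinned to 1000 UMIs, 7.58% and 35.2% of endocardial-like nuclei held a Ptprd UMI, while fibroblast-like nuclei had 43.3% and 35.1%. The protocadherin gene Pcdh11x was 116-fold higher (31.6 to 967) with 2 and 161 UMIs, the latter in 13 of 225 nuclei, so few nuclei carried it. The cation channel gene Trpc6 was 70.7-fold higher (12.1 to 2847) with 1 and 49 UMIs, in 19 of 225 nuclei after infarction. Brinp2, a neural gene, was 66.3-fold higher (11.3 to 2676) with 1 and 46 UMIs. All 4 of Ptprd, Pcdh11x, Trpc6 and Brinp2 were also higher in the running infarct than in the running library. Gja4, the gene of the arterial connexin 37, stood at 7.17 and 50.6 CPM, 7.07-fold higher (3.54 to 15.6), and the arterial list had 3 of 8 members higher (Gja4, Fbln5, Nrp1) and none lower.

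Of 22 measured fibrillar collagen and crosslinking genes, 8 were beyond 1.5-fold higher and none lower, with a median of 0.69 (0.89 in the running pair). The list's median was above 0 in all 9 classes, from 0.36 in pericyte-like to 1.67 in macrophage-like nuclei. Col3a1 was 3.13-fold higher (2.58 to 3.81) at 109.7 and 343 CPM, and the crosslinking enzyme gene Lox 3.85-fold higher (1.93 to 8.2) at 8.6 and 33.1 CPM. Col1a1 was 7.86-fold higher (5.26 to 12.1) at 20.8 and 163 CPM, but it was higher in 10 of the 11 classes that measured it. Over the 7 classes other than cardiomyocyte- and fibroblast-like it lay at 17.1 to 74.8 CPM without and 136 to 256 CPM with infarct, so its level does not set the endocardial-like class apart. The list of endothelial to mesenchymal transition had 3 of 12 higher (Tgfb2, Col1a1, Col3a1), none lower, median 0.60.

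Lower genes in the class were in part those of its smaller cluster. Hecw1, a ubiquitin ligase gene, stood at 279 CPM in the sedentary and 23.8 CPM in the infarct library, 11.7-fold lower (7.7 to 18.7). Lrfn5, a synaptic adhesion gene, was 58.3-fold lower (10.2 to 2328) with 84 and 1 UMIs, the former in 22 of 404 nuclei. Calcr, the calcitonin receptor gene, was 31.2-fold lower (5.32 to 1259.6) with 45 and 1 UMIs, the former in 13 of 404 nuclei. Wnt9b, a Wnt ligand gene of valve endocardium, was 4.21-fold lower (2.77 to 6.65) at 113 and 26.9 CPM, and Hey2, a Notch target, 3.63-fold lower (2.14 to 6.51) at 63.8 and 17.6 CPM. Without the smaller cluster, Hecw1 had a log2 ratio of -1.19 in place of -3.55. Wnt9b then had a log2 ratio of 1.59 and Hey2 of 0.26, so both turned to the other side. Of all calls, 138 of 211 higher and 68 of 190 lower ones were kept. Hapln1, which links hyaluronan to proteoglycans, stood at 164 and 52.7 CPM, 3.11-fold lower (2.29 to 4.31), and Cyp26b1, whose enzyme degrades retinoic acid, was 28.1-fold lower (7.53 to 236) with 81 and 2 UMIs. Drp2, a relative of dystrophin, was 20.5-fold lower (5.42 to 173) with 59 and 2 UMIs. Immediate early genes, which cells switch on within minutes of a stimulus, had 6 of 15 lower and none higher (median -1.16, and -1.35 in running mice). Egr1 was 4.97-fold lower (2.11 to 14.3) at 30.8 and 6.2 CPM and Nr4a2 5.09-fold lower (2.16 to 14.6) at 31.5 and 6.2 CPM.

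**Figure D2:**
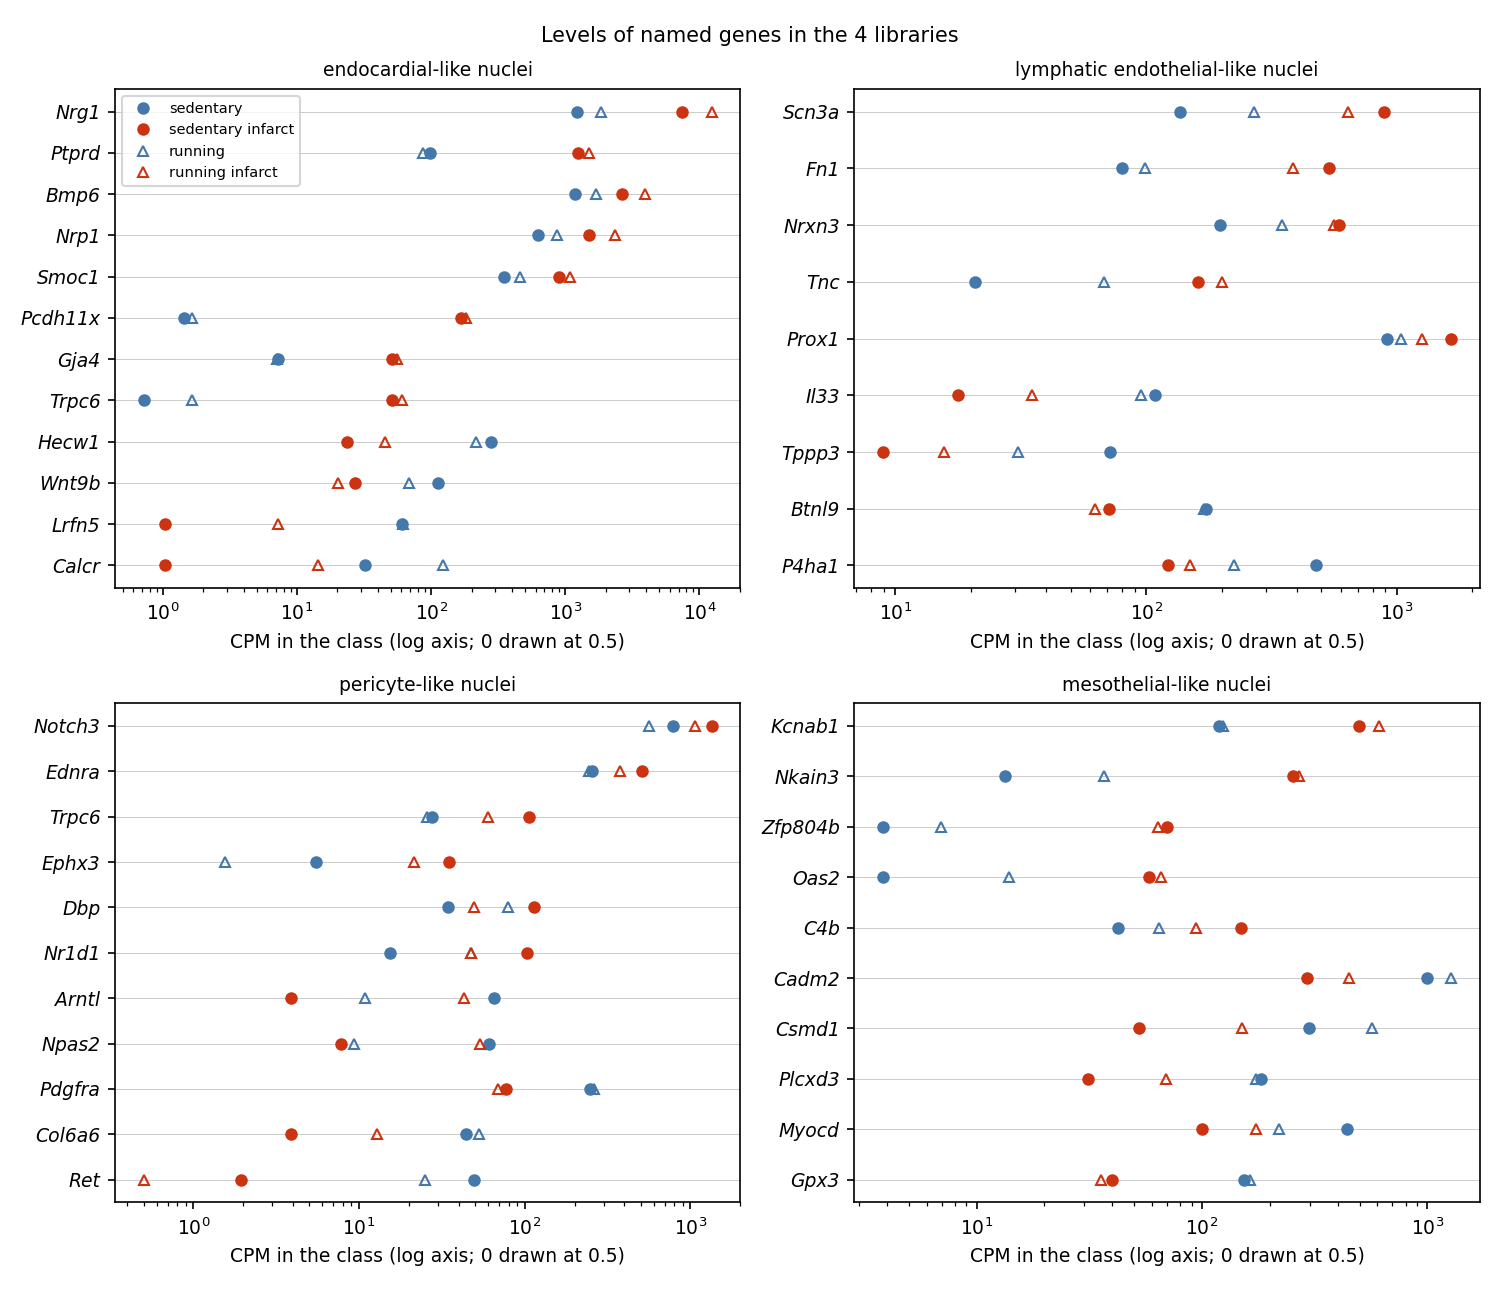
Levels (CPM, log axis) of named genes in endocardial-, lymphatic endothelial-, pericyte- and mesothelial-like nuclei of the sedentary (blue dots), sedentary infarct (red dots), running (blue triangles) and running infarct (red triangles) libraries. Nrg1, Ptprd and Pcdh11x were higher in both infarct libraries, while Arntl and Npas2 in pericyte-like nuclei moved in opposite directions in the 2 pairs.

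Lymphatic endothelial-like nuclei had more transcripts of the sodium channel gene Scn3a and of Fn1, Tnc and Thbs1, which encode matrix glycoproteins, after infarction. Most lymphatic identity genes were not called beyond 1.5-fold in either direction. Of 8283 genes measured in the class, 90 (1.09%) were beyond 1.5-fold higher and 67 (0.809%) beyond 1.5-fold lower. In running mice, 120 of 147 of those measured moved the same way, but only 38 of all 157 were beyond 1.5-fold in that direction. The 12 lymphatic markers summed to 9167 and 9509 CPM. The lymphatic identity list had 1 of 18 members beyond 1.5-fold higher, none lower and a median of 0.01. That member was Prox1, the transcription factor that sets lymphatic fate, at 912 CPM in the sedentary and 1649 CPM in the infarct library, 1.81-fold higher (1.62 to 2.02). In running mice it stood at 1043 and 1259 CPM, and the thinned share of nuclei with a Prox1 UMI was 56.5% and 55.6%, which does not show the difference. In Y-positive nuclei alone its log2 ratio was 0.28, beside 0.85 in all and 0.83 in clusters made and named without it. Flt4, a receptor for lymphatic growth factors, was 1.19-fold lower (1.03 to 1.37) at 937 and 790.4 CPM. Reln, a secreted glycoprotein gene, was 1.11-fold lower (1.0 to 1.22) at 1801 and 1628 CPM. The chemokine gene Ccl21a, which draws dendritic cells to lymphatics, was 1.26-fold lower (1.09 to 1.45) at 1004 and 799 CPM, and the hyaluronan receptor gene Lyve1 1.76-fold lower (1.35 to 2.31) at 371 and 211 CPM. None of these 4 was called beyond 1.5-fold.

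Scn3a (ENSMUSG00000057182), which encodes a voltage-gated sodium channel, ranked first among higher genes by the size rule, at 137 CPM in the sedentary and 891 CPM in the infarct library, 6.53-fold higher (5.24 to 8.18), with 269 and 636 CPM in running mice. Thinned, 11.3% and 30.6% of lymphatic nuclei held a Scn3a UMI, against 0% and 0.662% of fibroblast-like nuclei. The neurexin gene Nrxn3 stood at 198 and 588 CPM, 2.98-fold higher (2.41 to 3.69). Scn3a and Nrxn3 are best known from excitable cells, and each was also higher in the running infarct library. Tenascin C (Tnc), a matrix glycoprotein of wounds, was 7.74-fold higher (4.42 to 14.2) with 17 and 54 UMIs. Fibronectin (Fn1) was 6.64-fold higher (4.99 to 8.95) at 80.5 and 535 CPM, and thrombospondin 1 (Thbs1) 5.85-fold higher (3.12 to 11.5) at 18.3 and 107 CPM. In Y-positive nuclei the log2 ratio of Fn1 was 1.36, beside 2.73 in all. Of the classes that measured them, Fn1 was beyond 1.5-fold higher in 7 of 11, Nrxn3 in 6 of 9 and Thbs1 in 4 of 7. These changes were therefore not particular to lymphatic nuclei. The list of angiogenesis and tip cell genes had 2 of 15 measured members beyond 1.5-fold higher (Angpt2, Unc5b), none lower and a median of 0.13. Pdgfb, which recruits mural cells, was 3.08-fold higher (1.92 to 4.98) at 41.5 and 128 CPM, and the netrin receptor gene Unc5b 2.55-fold higher (1.88 to 3.47) at 105 and 267 CPM. Unc5b was beyond 1.5-fold higher in 4 of the 8 classes that measured it. Angpt2, a ligand of the Tie receptors, was 2.14-fold higher (1.52 to 3.03) at 91.5 and 196 CPM, and Nfatc1, a transcription factor gene of vessel valves, 2.26-fold higher (1.76 to 2.9) at 168 and 380.4 CPM. Zbtb1, a zinc finger factor, was 3.48-fold higher (2.09 to 5.86) at 34.1 and 119 CPM and the transporter gene Slc22a23 4.31-fold higher (2.09 to 9.26) at 15.9 and 68.3 CPM, but Zbtb1 stood at 65.1 and 62.5 CPM in running mice.

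Of 12 measured genes of leukocyte traffic and chemokines in lymphatics, none was called in either direction. Among single lower genes, Il33, an alarmin that activates innate lymphoid cells, was 6.09-fold lower (2.69 to 17) at 109 and 17.8 CPM, and stood at 95 and 35.1 CPM in running mice. Mrc1, the mannose receptor, was 2.27-fold lower (1.67 to 3.14) at 331 and 146 CPM, and Btnl9, a butyrophilin-like gene, 2.43-fold lower (1.57 to 3.92) at 173 and 71.3 CPM. Timp4, a metalloproteinase inhibitor gene, was 10.7-fold lower (1.75 to 438) with 26 and 1 UMIs. Tppp3, a tubulin-binding protein gene, was 8.07-fold lower (2.63 to 40.3) at 72 and 8.91 CPM, and the histone gene H2bc6 6.4-fold lower (2.63 to 20.3) at 95.1 and 14.9 CPM. P4ha1, a collagen prolyl hydroxylase gene, was 3.91-fold lower (2.83 to 5.54) at 477 and 122 CPM, but it was beyond 1.5-fold lower in 8 of 12 classes, and of the 4 libraries the sedentary one had the highest level in 9 of 9 classes compared. Without nuclei with a doublet score of 0.1 or more, 67 of 90 higher and 47 of 67 lower calls were kept.

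Pericyte-like nuclei had fewer transcripts of several fibroblast genes, more of Notch3 and Ednra, and the lowest share of higher calls of the 9 classes. Of 9313 genes measured in the class, 61 (0.655%) were beyond 1.5-fold higher and 96 (1.03%) beyond 1.5-fold lower. In running mice, 122 of 152 of those measured moved the same way, but only 55 of all 157 were beyond 1.5-fold in that direction. Many of these calls depended on nuclei that may be mixed. Without the 54 and 30 nuclei with a doublet score of 0.1 or more, 12 of 61 higher and 31 of 96 lower calls were kept. The 13 pericyte markers summed to 7036 and 9129.9 CPM and fibroblast markers to 6626 and 6201 CPM.

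The pericyte identity list had 2 of 20 members beyond 1.5-fold higher and none lower, with a median of 0.40. They were Notch3, the Notch receptor of mural cells, at 782 CPM in the sedentary and 1350.4 CPM in the infarct library, 1.73-fold higher (1.55 to 1.92), and Ednra, the endothelin A receptor gene, at 256 and 507 CPM, 1.98-fold higher (1.65 to 2.37). Both were also higher in the running infarct library, at 564 and 1072 CPM for Notch3 and 244 and 377 CPM for Ednra. Neither call was stable, and Notch3 is among the markers that named the class. The log2 ratio of Notch3, 0.79, was 0.29 in Y-negative nuclei, and that of Ednra, 0.99, was 0.35 with finer clusters. Trpc6, a cation channel of vessel walls, was 3.86-fold higher (2.36 to 6.46) at 27.6 and 106 CPM, with a log2 ratio of 1.95 that became 0.58 with finer clusters. Sorcs1, a sorting receptor gene, was 2.32-fold higher (1.78 to 3.03) at 113 and 261 CPM and Sparc, a collagen-binding matrix protein gene, 1.9-fold higher (1.59 to 2.28) at 259 and 493 CPM. Sparc was beyond 1.5-fold higher in 8 of the 12 classes that measured it. Pdgfrb, the receptor that recruits pericytes, was 1.49-fold higher (1.33 to 1.65) at 814 and 1209 CPM. Of the subunits of their ATP-sensitive potassium channel, Abcc9 was 1.25-fold higher (1.17 to 1.34) at 2164 and 2707 CPM and Kcnj8 1.11-fold higher (0.908 to 1.34) at 299 and 331 CPM. Rgs5, a brake on G protein signalling, was 1.14-fold higher (1.02 to 1.28) at 864 and 985 CPM. None of these 4 was called beyond 1.5-fold. Ephx3, an epoxide hydrolase gene, was 6.31-fold higher (2.26 to 21.8) with 5 and 18 UMIs. Gtf3c3, of the RNA polymerase III machinery, was 3.86-fold higher (2.04 to 7.64) at 16.6 and 63.8 CPM and Sde2 4.48-fold higher (2.0 to 11) at 9.93 and 44.5 CPM, but in running mice Gtf3c3 stood at 42.1 and 32.3 CPM and Sde2 at 17.9 and 15.1 CPM.

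Among lower genes, homeostatic fibroblast genes stood out by number, with 7 of 15 measured members beyond 1.5-fold lower, none higher and a median of -1.17 (-1.7 in running mice). The median was -0.12 with finer clusters and -0.52 in Y-negative nuclei. Pdgfra, a receptor of platelet-derived growth factors that marks fibroblasts, stood at 247 and 77.4 CPM, Scara5, a scavenger receptor gene, at 158 and 34.8 CPM, and Gfra1, a co-receptor of the Ret kinase, at 49.6 and 7.74 CPM. In fibroblast-like nuclei themselves 8 of 18 members were lower and none higher (median -0.64). Ret, the kinase that Gfra1 serves, was 25.7-fold lower (4.38 to 1036) with 45 and 1 UMIs, the former in 23 of 163 nuclei, and the membrane protein gene Tmem178b 13.1-fold lower (3.43 to 112) with 46 and 2 UMIs. Vegfc, a lymphatic growth factor gene, was 2.99-fold lower (2.13 to 4.29) at 237 and 79.3 CPM, with 236 and 177 CPM in running mice, and its log2 ratio was -0.06 with at most 5% mitochondrial UMIs.

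Smooth muscle-like nuclei were few, 40 and 28, and below the number set for choosing genes by size, so list members alone are described. Of 3715 genes measured in the class, 87 (2.34%) were beyond 1.5-fold higher and 81 (2.18%) beyond 1.5-fold lower. Only 2 of the 28 infarct nuclei were Y-positive, against 18 of the 40 sedentary ones, and Y-linked genes stood at 462 and 29.3 CPM. Of the fibrillar collagen and crosslinking genes, which include elastin, 7 of 17 measured members were beyond 1.5-fold higher and 1 lower (P4ha1), median 1.5, and 0.98 in running mice. Elastin (Eln) stood at 302 CPM in the sedentary and 979 CPM in the infarct library, 3.24-fold higher (2.33 to 4.59), and at 408 and 1473 CPM in the running pair. Col8a1, a short-chain collagen gene of vessel walls, was 6.74-fold higher (4.42 to 10.7) at 161 and 1081 CPM, Col1a2 8.47-fold higher (3.65 to 24.1) at 38.5 and 326 CPM and Col5a2 3.76-fold higher (2.22 to 6.71) at 116 and 435 CPM. With Y-positive nuclei alone, where 2 infarct nuclei carry every value, Eln had a log2 ratio of -1.39 and Col8a1 of 0.59.

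Of 20 measured contractile smooth muscle genes, none was called in either direction, and the median was -0.30 (-0.41 in running mice, and 0.66 in Y-positive nuclei). Myh11, smooth muscle myosin, was 1.36-fold lower (1.21 to 1.53) at 4250.4 and 3124 CPM. Smooth muscle actin (Acta2) was 1.43-fold lower (1.21 to 1.68) at 2234 and 1565 CPM and the actin-binding transgelin (Tagln) 1.65-fold lower (1.31 to 2.08) at 1265 and 767 CPM. In running mice Acta2 stood at 2288 and 921 CPM and Tagln at 1376 and 593 CPM. Tgfb3 was 5.67-fold lower (3.4 to 9.97) at 616 and 109 CPM, whereas its relative Tgfb2 was 2.89-fold higher (1.89 to 4.51) at 193 and 556 CPM. The L-type calcium channel gene Cacna1d was 3.32-fold lower (1.86 to 6.25) at 321 and 96.7 CPM. Errfi1, an inhibitor of the EGF receptor, was 2.45-fold lower (1.72 to 3.54) at 681 and 278 CPM. Smooth muscle markers summed to 14485 and 10609 CPM. Transcripts of other cell types shifted alongside. Cardiomyocyte markers summed to 15287 and 7539.8 CPM, fibroblast markers to 3030.5 and 5546 CPM and mesothelial markers to 128 and 1812 CPM. Titin (Ttn), a sarcomere gene, was 4.02-fold lower (3.19 to 5.12) at 2234 and 556 CPM, which moved to a log2 ratio of -0.69 from -2.01 when clusters were made without the genes named here. Their part in the values above was not tested.

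Mesothelial-like nuclei of the infarct library had more transcripts of several complement and collagen genes, and fewer of the adhesion gene Cadm2 and of Csmd1 and Myocd. Of 8673 genes measured in the class, 121 (1.40%) were beyond 1.5-fold higher and 121 (1.40%) beyond 1.5-fold lower. In running mice, 195 of 232 of those measured moved the same way, but only 84 of all 242 were beyond 1.5-fold in that direction. The 13 mesothelial markers summed to 26909 and 25560 CPM, and no member of the mesothelial identity list was called beyond 1.5-fold. Wt1, the transcription factor of the epicardium, was 1.16-fold lower (1.03 to 1.31) at 951 and 819 CPM, and mesothelin (Msln) 1.35-fold higher (1.13 to 1.62) at 372 and 502 CPM.

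Kcnab1 (ENSMUSG00000027827), a potassium channel subunit gene, stood at 119 CPM in the sedentary and 495 CPM in the infarct library, 4.16-fold higher (3.17 to 5.55), with 124 and 609 CPM in running mice. Nkain3, whose product binds the sodium pump, was 19-fold higher (9.02 to 47.8) with 7 and 179 UMIs, the latter in 35 of 133 nuclei, with a log2 ratio of 2.51 in Y-negative nuclei and 4.25 in all. Thinned, 0.962% and 16.9% of mesothelial-like and 2.12% and 7.06% of fibroblast-like nuclei held a Nkain3 UMI. Zfp804b, a zinc finger protein gene, was 18.2-fold higher (4.77 to 154) with 2 and 49 UMIs. Oas2, an interferon-induced antiviral gene, was 15.2-fold higher (3.95 to 129.8) with 2 and 41 UMIs, the latter in 27 of 133 nuclei. The list of complement and acute phase genes had 4 of 10 measured members beyond 1.5-fold higher and none lower, with a median of 0.44 (0.18 in running mice). Among these, the complement component gene C4b was 3.54-fold higher (2.22 to 5.89) at 42.2 and 149 CPM, and the protease gene C1s1 2.3-fold higher (1.66 to 3.23) at 95.9 and 220.4 CPM. Slpi, a protease inhibitor gene of the same list, was 6.92-fold higher (2.14 to 35.6) with 3 and 28 UMIs.

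Fibrillar collagen and crosslinking genes had 6 of 24 members higher and none lower, median 0.64, and myofibroblast genes 5 of 9 higher and none lower, median 1.23. The myofibroblast median, too, was above 0 in all 9 classes, from 0.68 in lymphatic to 2.87 in fibroblast-like nuclei. The transcription factor gene Runx1 was 7.05-fold higher (3.04 to 20) at 11.5 and 81.1 CPM, and Ltbp2, a matrix protein gene of elastic fibres, was 13.7-fold higher (3.54 to 118) with 2 and 37 UMIs. Myosin light chain kinase (Mylk) was 3.47-fold higher (2.29 to 5.42) at 53.7 and 186 CPM and the adhesion molecule gene Ncam1 3.3-fold higher (2.25 to 4.98) at 63.3 and 209 CPM, and in running mice Mylk stood at 125 and 448 CPM and Ncam1 at 117 and 308 CPM. The guidance receptor gene Robo1 was 2.42-fold higher (1.55 to 3.92) at 49.9 and 121 CPM and the angiotensin receptor gene Agtr1a 4.2-fold higher (1.74 to 12.2) at 11.5 and 48.4 CPM.

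On the lower side, the adhesion molecule gene Cadm2 stood at 1001 CPM in the sedentary and 292 CPM in the infarct library, 3.43-fold lower (2.92 to 4.06), and 1277 and 448 CPM in the running pair. Thinned, 50% and 22.3% of nuclei held a Cadm2 UMI. Its relative Cadm1 was 3.89-fold lower (2.9 to 5.28) at 343 and 88.2 CPM. Csmd1, a complement-regulating membrane protein gene, was 5.65-fold lower (3.93 to 8.32) at 297 and 52.6 CPM and Plcxd3, a phospholipase-like gene, 5.82-fold lower (3.63 to 9.73) at 182 and 31.3 CPM. Myocardin (Myocd), the coactivator of smooth muscle genes, was 4.41-fold lower (3.36 to 5.85) at 439 and 99.5 CPM, although it stood at 219.5 and 174 CPM in running mice. The secreted antioxidant enzyme gene Gpx3 was 3.85-fold lower (2.48 to 6.16) at 153 and 39.8 CPM, the growth factor receptor gene Kdr 2.12-fold lower (1.72 to 2.62) at 449 and 212 CPM and Npr3 2.21-fold lower (1.81 to 2.71) at 497 and 225 CPM. Potassium channel genes went both ways, since Kcnab1 was higher whereas Kcnd3 was 2.84-fold lower (2.05 to 3.99) at 222 and 78.2 CPM and Kcnq5 3.24-fold lower (2.41 to 4.41) at 295 and 91 CPM. Stum was at least 9.89-fold lower with 22 and 0 UMIs, and Wfdc2, a secreted protease inhibitor gene, 13.5-fold lower (3.28 to 119) with 20 and 2 UMIs.

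By their genes, lymphocyte-like nuclei of the infarct library included T and B cell-like ones, and too few were in the sedentary library for a comparison of levels. The T cell-like cluster had 9 sedentary and 52 infarct nuclei, a ratio of shares of 9.46 (4.67 to 19.2), and 16 and 128 in the running pair. The B cell-like cluster had 0 and 17 (17 and 56 in the running pair). With 0 taken to allow 3 nuclei, as for UMIs, the share among 5114 could be up to 0.0587%. In the infarct T cell-like nuclei, Skap1, an adaptor of the T cell receptor, was found in 48 of 52 nuclei with 482 UMIs, and the T cell factor gene Bcl11b in 35. Cd4 was found in 12 nuclei and Cd8a in 6, the natural killer receptor gene Ncr1 in 7 and the regulatory T cell factor gene Foxp3 in 3. In the B cell-like nuclei, Pax5, the B cell identity factor, was found in 15 of 17, Ighm in 16 and Ighd in 11. Skap1 and Bcl11b had no UMI in the B cell-like nuclei. The 9 sedentary nuclei had a median of 8928 UMIs against 2562 in the 69 infarct ones, and 6 of the 9 were Y-positive. Their median doublet scores were 0.0889 and 0.0517. In this class T cell markers summed to 3339 and 4360 CPM and B cell markers to 2282 and 3293 CPM. Fibroblast markers summed higher, to 6372 and 6289 CPM, and vascular endothelial markers to 3770 and 3153 CPM. The part of mixed nuclei and free RNA in these sums was not tested.

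In the 4 larger classes a few of the genes chosen by size are given. Of 8566 genes measured in macrophage-like nuclei, 146 (1.70%) were beyond 1.5-fold higher and 92 (1.07%) beyond 1.5-fold lower. Gpnmb, which encodes a transmembrane glycoprotein, was at least 26.5-fold higher with 0 and 144 UMIs, the latter in 28 of 226 nuclei. Ccr2, the monocyte chemokine receptor gene, was 6.97-fold higher (4.05 to 13) at 32.9 and 229 CPM, and St18, a zinc finger factor gene, 38.2-fold higher (12.9 to 187) at 7.05 and 269.5 CPM. The protease gene Adam8 was 23.2-fold higher (3.94 to 936) with 1 and 42 UMIs. Bank1, an adaptor gene best known from B cells, was 2.76-fold lower (2.39 to 3.2) at 1109 and 402 CPM and Adhfe1 4.22-fold lower (2.92 to 6.18) at 235 and 55.7 CPM. Of 11083 genes measured in vascular endothelial-like nuclei, 159 (1.43%) were beyond 1.5-fold higher and 151 (1.36%) beyond 1.5-fold lower. The mechanosensitive channel gene Piezo2 was 4.1-fold higher (3.19 to 5.3) at 46.3 and 190 CPM and Adamtsl1 3.78-fold higher (3.12 to 4.58) at 82.3 and 311 CPM, and 6 of 17 basement membrane genes were higher and none lower, median 0.50. Cyp26b1 was 6.69-fold lower (3.41 to 15) at 58.7 and 8.77 CPM and the cytokine-like gene Cytl1 5.31-fold lower (3.27 to 9.16) at 93.2 and 17.5 CPM. The arterial cluster made up less of this vascular class in the infarct library, and its part in these values was not tested.

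Of 13767 genes measured in fibroblast-like nuclei, 452 (3.28%) were beyond 1.5-fold higher and 339 (2.46%) beyond 1.5-fold lower. Kif26b, a kinesin-family gene, was 89-fold higher (57.4 to 146) at 3.94 and 351 CPM, and the collagen gene Col11a1 52-fold higher (26.1 to 121) at 1.58 and 82 CPM. Cthrc1, a secreted protein gene of matrix-producing fibroblasts, was 43.6-fold higher (19.7 to 120.1) at 1.18 and 51.6 CPM. Of the myofibroblast genes, 15 of 18 were beyond 1.5-fold higher and none lower, median 2.87. A cluster led by Col12a1, Nox4 and Postn held 39 sedentary and 454 infarct nuclei. Ret was 7.16-fold lower (5.53 to 9.41) at 105 and 14.6 CPM here too, as in pericyte-like nuclei. Of 12784 genes measured in cardiomyocyte-like nuclei, 238 (1.86%) were beyond 1.5-fold higher and 186 (1.45%) beyond 1.5-fold lower. The stress gene Ankrd1 was 10.1-fold higher (9.54 to 10.7) at 211 and 2131 CPM and Nppb, which encodes brain natriuretic peptide, 5.5-fold higher (4.76 to 6.37) at 38.6 and 212 CPM. The insulin receptor substrate gene Irs2 was 5.42-fold lower (4.16 to 7.17) at 95.9 and 17.7 CPM and Pdk4, which limits glucose oxidation, 4.51-fold lower (3.91 to 5.22) at 279.7 and 62.1 CPM.

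Some genes were higher in nearly all classes at like levels. Nppa, the atrial natriuretic peptide gene, was beyond 1.5-fold higher in 9 and Acta1, skeletal actin, in 8 classes. Nppa went from 14.6 to 318 CPM in cardiomyocyte-like nuclei, and from a range of 0 to 13.3 to one of 115 to 228 CPM over the 7 classes other than cardiomyocyte- and fibroblast-like. Acta1 went from a range of 7.32 to 18.8 to one of 41.6 to 131 CPM in those 7. Nppa passed the naming rule in endocardial-, mesothelial- and vascular endothelial-like nuclei and Acta1 in mesothelial-like nuclei, at levels within these ranges. With the estimated free RNA subtracted, the log2 ratio of Nppa was 5.84 in endocardial- and 5.11 in mesothelial-like nuclei, beside 5.30 and 5.31 without. Whether these nuclei express the genes was not tested. The gene list of cardiac stress genes had a median above 0 in all 8 classes where at least 5 of its members were measured.

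**Figure D3:**
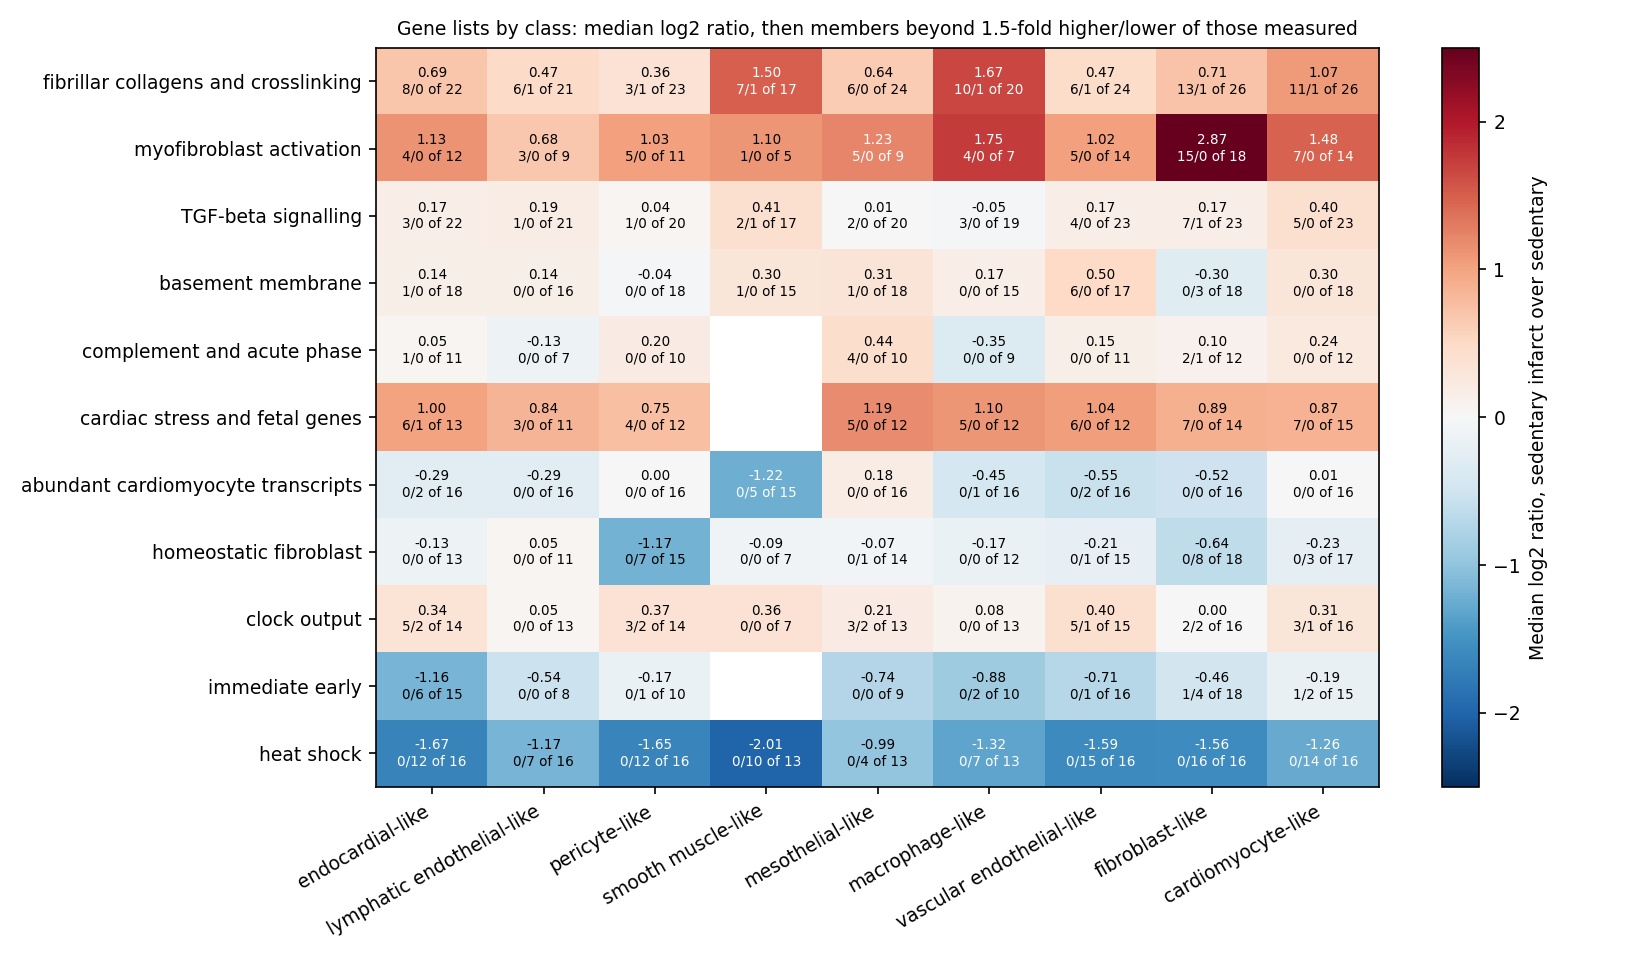
Median log2 ratio of infarct over no infarct (colour, first line) for 11 gene lists in 9 classes of sedentary mice, with the numbers of members beyond 1.5-fold higher and lower of those measured (second line); blank where fewer than 5 were measured. Myofibroblast genes reached 2.87 in fibroblast-like nuclei, and heat shock genes were below 0 in all 9 classes.

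Chaperone genes, several clock genes and the immediate early sum differed between the 2 libraries in the same direction in most or all classes, often not beyond 1.5-fold. The immediate early sum was lower in the infarct library in 9 of 9, but by little in cardiomyocyte-like nuclei, at 294 and 280 CPM. There 1 of 15 measured members was called higher and 2 lower, and in lymphatic nuclei 0 of 8 were called. The clock output list had no call among 13 measured members in lymphatic and 7 in smooth muscle-like nuclei. The heat shock list, of chaperones that cells induce when proteins misfold, had a median below 0 in all 9 classes, with medians from -2.01 in smooth muscle-like to -0.99 in mesothelial-like nuclei. In the running pair the medians were -0.96 and -0.19. In endocardial-like nuclei 12 of 16 members were beyond 1.5-fold lower, in pericyte-like nuclei 12 of 16, in smooth muscle-like nuclei 10 of 13, in lymphatic nuclei 7 of 16 and in mesothelial-like nuclei 4 of 13, and none was higher. Summed over the list, the level ran from 1770 to 3589 CPM over the 9 classes of the sedentary library, 873 to 1512 in the running, 697 to 987 in the infarct and 698 to 1053 in the running infarct library. The sedentary library was the highest of the 4 in 9 of 9 classes, so it stands apart from the running library too, which had no infarct either. Hspa1a, an inducible Hsp70 gene, had 32 UMIs in lymphatic and 27 in pericyte-like nuclei of the sedentary library and 0 in both after infarction.

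Several clock genes went in opposite directions in the 2 pairs. Dbp, Nr1d1, Nr1d2 and Per3, which peak together in the daily cycle, were above the sedentary level in 9 of 9 classes of the infarct library, while in running mice they were above in 2, 3, 1 and 1 of 9. Arntl, the activator that runs in antiphase, was above in 1 of 9 classes here and in 9 of 9 in running mice. In pericyte-like nuclei Dbp was 3.34-fold higher (2.13 to 5.33) at 34.2 and 114 CPM, Nr1d1 6.64-fold higher (3.63 to 13) at 15.4 and 103 CPM and Arntl 16.8-fold lower (4.46 to 142) at 65.1 and 3.87 CPM, with Arntl at 10.9 and 43.1 CPM in running mice. In endocardial-like nuclei Dbp was 4.02-fold higher (2.67 to 6.18) at 23.7 and 95.1 CPM and Arntl 7.32-fold lower (4.38 to 13.1) at 121 and 16.5 CPM, and in mesothelial-like nuclei Npas2, a partner of the clock, had 48 and 0 UMIs. The hour at which hearts were taken is not given in the sources used here. Calls in these lists therefore describe the libraries, in which the infarct and the collection of the hearts cannot be told apart.

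**Figure D4:**
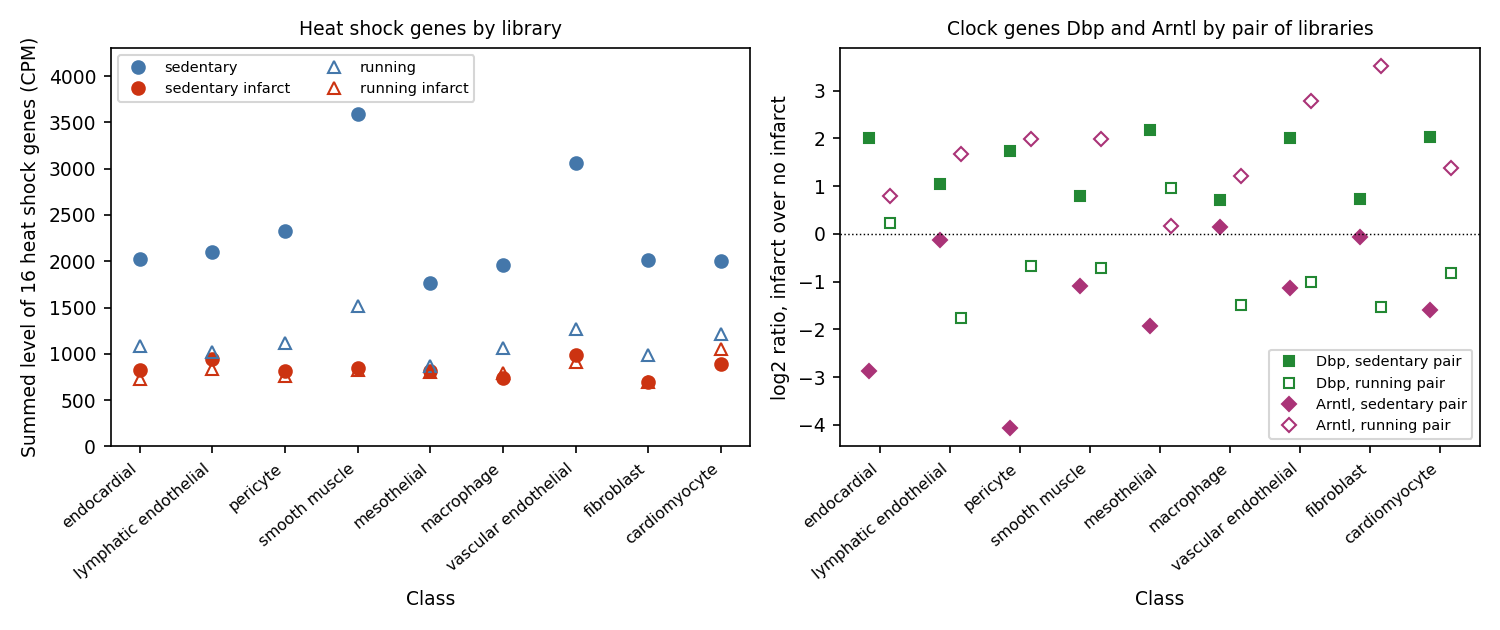
Left, summed level (CPM) of the 16 heat shock genes in 9 classes of the sedentary (blue dots), sedentary infarct (red dots), running (blue triangles) and running infarct (red triangles) libraries, with the sedentary library highest in each class. Right, log2 ratio of infarct over no infarct for Dbp (green) and Arntl (purple) in the sedentary (filled) and running (open) pairs, where the filled Dbp points lie above 0 in all 9 classes.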

How the data were processed

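Single-nucleus RNA was measured in 4 libraries of pooled ventricles, of which the sedentary and sedentary infarct libraries are compared. The authors deposited tables of unnormalised UMI counts, made with Cell Ranger 7.1 on GRCm39, per the submitters' processing notes. Limits of 300 genes and 20% mitochondrial UMIs were set on barcodes, and the highest Scrublet scores, 0.8% for each 1000 barcodes, were left out as doublets. Nuclei of all 4 libraries were clustered with scanpy 1.11.5 (3000 variable genes, 40 components, 15 neighbours, Leiden resolution 1), and 12 classes were named from markers. UMIs were summed per class and library and compared as CPM with exact intervals (scipy 1.17.1). The ratio step was run on simulated counts that varied by counting error alone. Such counts check the computation and not the calls, since they hold no differences between hearts or nuclei and no free RNA. The size rule named up to 6 genes a direction in classes of at least 30 nuclei in each library. Such genes were beyond 1.5-fold, and, in the library where they were higher, no lower in the class than over all nuclei and in at least 5 nuclei with no nucleus over 25% of the UMIs. They had 1 sign in Y-positive and Y-negative nuclei where each of these held at least 20 UMIs, and were ranked by the interval limit nearest to no change. Gene models and Y-linked and mitochondrial genes were left out. The comparison, the markers, the 45 gene lists and the rule were chosen with earlier results of these data known. Some genes, among them 1 that the rule named, are not reported here. Genes carry no coordinates here, since the annotation used for Y-linked genes is of another build.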

Additional observations from a re-analysis of the deposited data

Results flagged for a closer look

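In pericyte-like nuclei the log2 ratios of 2 clock genes, infarct over no infarct, had opposite signs in the sedentary and running pairs. This was not particular to these nuclei, since Arntl was above the no-infarct level in 1 of 9 classes of the sedentary and 9 of 9 of the running pair. The infarct and the collection of the hearts cannot be told apart in these values. Arntl had a log2 ratio of -4.07 in the sedentary and 1.98 in the running pair, the former resting on a level of only 3.87 CPM in the infarct library. Npas2, its relative, had -2.97 and 2.52. The difference between the pairs was not tested, since each group was 1 library.

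Nuclei left without a name held clusters that were larger in the infarct library. One, led by Acaca, Ltbp2, Ccn5, Pcdh9 and Comp, had 28 sedentary and 85 infarct nuclei, 0.548% and 2.72% of each library. It had 42 nuclei in the running and 267 in the running infarct library. Another, led by macrophage genes such as F13a1, Ms4a7 and Adgre1, had 97 and 213 nuclei, 1.9% and 6.82%, with a median doublet score of 0.103. It was not counted in the macrophage-like class.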

How the results depend on the processing

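Over the alternatives run, 168 of 186 log2 ratios of genes kept their sign in every one in which they were measured. Many were not measured in all of them, for example 142 in Y-positive nuclei and 122 from 100 UMIs. The replacement of CPM by a size factor moved 0 of 186 genes by over 1.5-fold, finer clusters 5 of 174, keeping doublets 28 of 186, equal weight per nucleus 31 of 186, subtraction of free RNA 41 of 186, at most 5% mitochondrial UMIs 41 of 161, Y-negative nuclei 51 of 160 and Y-positive nuclei 73 of 142. Counts of genes summed over 9 classes were 1565 higher and 1323 lower. The lower count became 2737 with doublets kept and 878 in Y-positive nuclei, and from 100 UMIs the counts were 860 higher and 840 lower. With at most 5% mitochondrial UMIs the ratio of shares was 0.642 for endocardial-, 0.50 for lymphatic endothelial-, 0.818 for mesothelial-, 0.963 for vascular endothelial- and 0.401 for cardiomyocyte-like nuclei. From 800 genes a barcode it was 0.68 for vascular endothelial-like nuclei. In Y-positive nuclei it was 0.335 for lymphatic endothelial-, 0.811 for pericyte-, 0.309 for smooth muscle-, 0.895 for mesothelial-, 4.17 for lymphocyte- and 0.482 for vascular endothelial-like nuclei. In Y-negative nuclei it was 0.896 for lymphatic endothelial-, 1.64 for pericyte-, 2.1 for smooth muscle-, 3.24 for mesothelial- and 32.3 for lymphocyte-like nuclei. Without the smaller endocardial-like cluster it was 1.1. Of the 18 genes that did not keep their sign, 7 had been called beyond 1.5-fold. These were Arhgap24 in macrophage-like nuclei with doublets kept (-0.26), Wnt9b in endocardial-like nuclei from 800 genes (0.54) and without the smaller cluster (1.59), where Hey2 also turned (0.26), and Bmp4 there in Y-positive nuclei (-0.30). In smooth muscle-like nuclei, Eln (-1.39), Tgfb2 (-0.27), the synthetic list (-0.33) and the collagen list (-0.73) turned in Y-positive nuclei and Myh6 (0.12) in Y-negative ones. The other 11 (Wt1, Abcc9, Kcnj8, Rgs5, Npr3, Flt4, Reln, Ccl21a, Acta2, Myh11 and Tagln) had not been called. The cause of these moves was not tested. The fits without nuclei of doublet score 0.1 or more, without the smaller endocardial-like cluster and without the genes named were chosen after seeing the data. In the last, 156 of 161 log2 ratios stayed within their interval, and no pericyte-like cluster could be named. With coarser clusters (Leiden resolution 0.5) and with only the 2 sedentary libraries clustered, too, not all 9 classes had nuclei in both libraries. Summed counts were therefore not computed there, and 168 and 169 of the 186 log2 ratios were. No paired analysis was possible because each group was 1 library.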
